A study of Mus musculus with 8 samples.

Results

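The 40 genes described here are genes of skeletal muscle, read in digests of mouse embryonic rib cages that were labelled as chondrocytes, the cells of cartilage. They encode myosins, actins, troponins, tropomyosins, calcium-handling proteins, synaptic proteins and myogenic factors. They came as a list of names that was drawn up with earlier results of these data known. Counts among them are therefore set beside those of all genes and are not a test. Each gene was read from the probe sets that the platform annotation maps to its symbol alone, and the probe set with the highest mean signal over the 8 arrays stood for it. All 40 were found among the 18193 genes with such a probe set.

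The samples were 4 of Hoxc8 transgenic embryos and 4 of control embryos labelled wild type, all of strain FVB at stage E18.5, shortly before birth. A transgenic and a control sample came from each of 4 litters, numbered 1 to 4 here, and replicate numbers equal litter numbers. Rib cages had been digested with collagenase and trypsin and the cells strained. The labels name neither the promoter that drives the transgene nor the number and sex of the embryos in a sample.

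Skeletal muscle contracts through sarcomeres, in which thick filaments of myosin pull on thin filaments of actin. Calcium released from the sarcoplasmic reticulum binds troponin, which moves tropomyosin off the myosin sites on actin. Most of these proteins exist as isoforms that mark embryonic, neonatal, fast or slow fibres, and fetal fibres carry several of them together. The transcription factors Myod1, Myf5, Myog and Myf6 drive muscle genes through short DNA motifs called E-boxes, and Pax7 marks muscle stem cells. Intercostal muscles lie between the ribs. In bulk samples such as these, fewer muscle cells and less muscle RNA per cell cannot be told apart.

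A signal here is a probe brightness on a linear scale, and every array had a trimmed mean signal of 500. Hoxc8 averaged 3885 ± 369 in transgenic and 3519 ± 501 in control samples (SD, n = 4 each), a difference of 0.15 log2 with an exact two-sided permutation p of 0.257. It is not stated whether this probe set reads the transgene, and the value therefore says little about the labels. Markers of the labelled cell type were present: 14 of 15 chondrocyte gene symbols listed had a probe set, all over the filter described next. Col2a1, the main collagen of cartilage, ranged over 39184 to 45059 in transgenic and 40147 to 63257 in control samples.

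Of the 40 muscle genes, 33 reached the filter, a mean signal of 110.4 over the 8 arrays, which was the median over all probe sets, and were tested. Myh1, Myh2, Myh4, Myh7, Actn3, Mb and Myf6 fell short, and their values are given below without a test. Between genotypes 0 of the 33 passed an adjusted p of 0.05, against 0.0% of all genes tested (limma, smallest adjusted p among the 33 of 0.9999). By unadjusted p, 3 of the 33 lay under 0.05, against 0.902% of all genes tested. Given how the list was drawn up, that share is not a test. Between litters, with genotype in the model, 11 of the 33 passed, or 33.3%, against 9.99% of all genes tested and 9.07% of all probe sets tested (limma moderated F-test, adjusted over all probe sets tested). Those 11 were 5 fast fibre genes, 2 developmental isoforms, 1 slow fibre gene, 2 shared sarcomere genes and Ckm. In 10 of the 11, all but Tnnt3, litter 2 was lowest in both genotypes. That pattern with the same threshold thus held for 10 of the 33 muscle genes, against 2.73% of all genes tested. Litter 2 is the litter in which these genes were low, so the pattern favours them and the share is not a test. Of the 1097 genes of any kind that passed between litters, 300 had litter 2 lowest in both genotypes. The range between the highest and the lowest litter mean had a median of 0.64 log2 over the 33, beside 0.37 log2 over all genes tested. These calls rested on the intensity trend of the variance model: without it 0 muscle genes and 0 probe sets passed (smallest adjusted p 0.0858), while 19 of the 33 had an unadjusted p under 0.05 in both versions of the fit. Over all genes tested that share was 30.0% with the trend, and without it 4914 of 22495 probe sets had such a p. What else varied between litters, such as dissection or digestion, cannot be told apart from the litter itself.

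**Figure D1:**
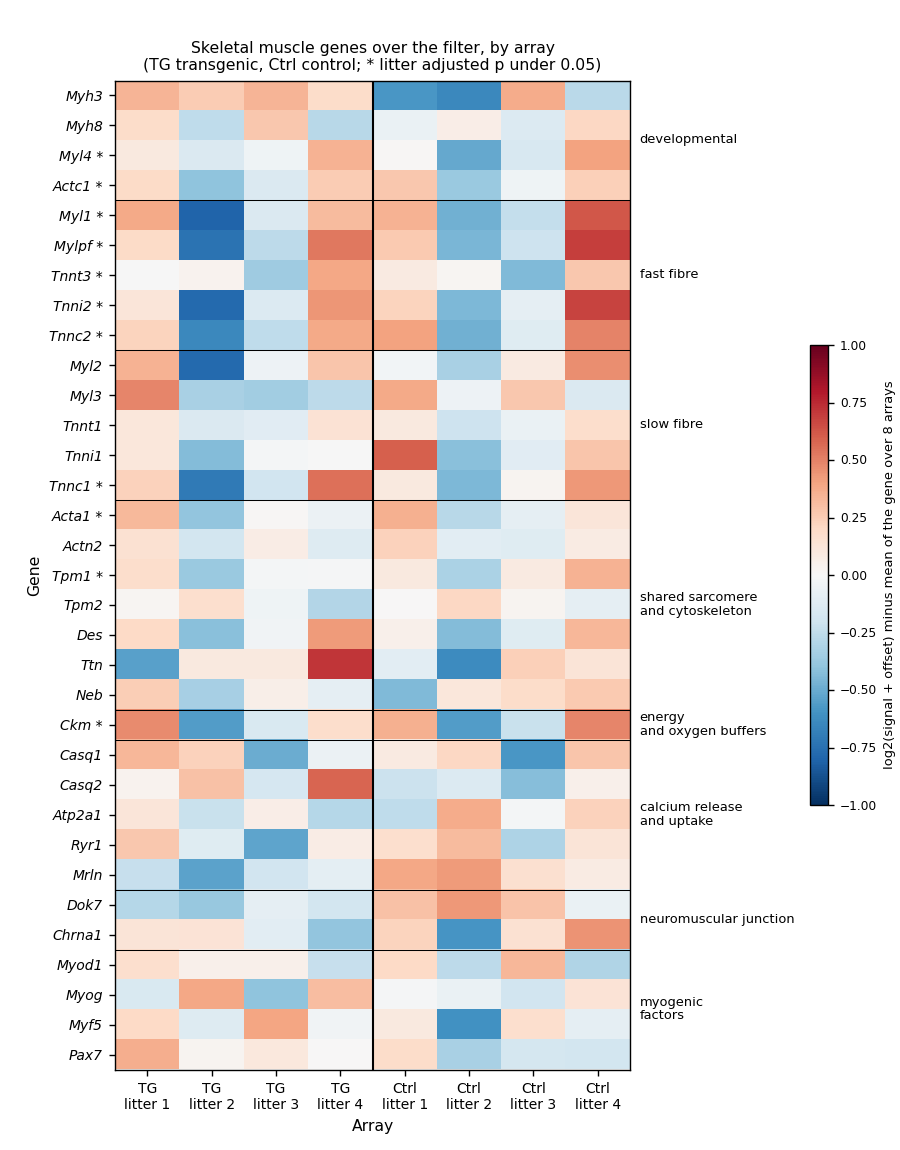
Each row is 1 of the 33 muscle genes tested and each column 1 array, with transgenic arrays (TG) left of control arrays (Ctrl). Colour gives log2(signal + 22.2) minus the gene's mean over the 8 arrays, and an asterisk marks the 11 genes past the litter threshold. Mylpf, Myl1, Tnni2, Tnnc2 and Tnnc1 are blue in litter 2 and red in litter 4 of both genotypes.

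The sequences just upstream of Mylpf, Tnnc2, Myl1 and Ckm are shown because the myogenic factors that drive muscle genes bind E-boxes, and these 4 had the smallest litter p among the genes with a promoter sequence. They are the 250 bases before the start of the RefSeq gene model (GRCm38.p6), written 5′ to 3′ on the gene's strand, with E-boxes (CANNTG) and TATAAA, on either strand, in capitals. Mylpf, the regulatory light chain of fast myosin, lies on the plus strand, shown at chr7:127211358-127211607. Tnnc2, the calcium sensor of fast troponin, lies on the minus strand, shown at chr2:164779735-164779984. Myl1, an essential light chain of fast myosin, also lies on the minus strand, shown at chr1:66945057-66945306. Ckm, the muscle creatine kinase, lies on the plus strand, shown at chr7:19410844-19411093.
Mylpf: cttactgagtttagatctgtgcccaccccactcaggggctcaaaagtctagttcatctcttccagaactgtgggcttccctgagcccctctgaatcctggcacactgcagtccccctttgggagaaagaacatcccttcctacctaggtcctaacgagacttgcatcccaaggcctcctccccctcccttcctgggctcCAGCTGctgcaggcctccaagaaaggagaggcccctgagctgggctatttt
Tnnc2: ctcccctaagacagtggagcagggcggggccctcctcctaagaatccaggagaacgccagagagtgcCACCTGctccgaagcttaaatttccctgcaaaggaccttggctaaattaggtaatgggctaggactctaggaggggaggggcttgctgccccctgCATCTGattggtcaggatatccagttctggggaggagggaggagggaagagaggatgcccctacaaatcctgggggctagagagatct
Myl1: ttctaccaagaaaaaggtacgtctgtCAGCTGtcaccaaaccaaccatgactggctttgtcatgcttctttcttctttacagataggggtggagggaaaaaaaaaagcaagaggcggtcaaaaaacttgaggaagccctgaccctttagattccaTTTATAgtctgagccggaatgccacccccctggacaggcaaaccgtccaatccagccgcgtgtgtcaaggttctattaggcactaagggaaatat
Ckm: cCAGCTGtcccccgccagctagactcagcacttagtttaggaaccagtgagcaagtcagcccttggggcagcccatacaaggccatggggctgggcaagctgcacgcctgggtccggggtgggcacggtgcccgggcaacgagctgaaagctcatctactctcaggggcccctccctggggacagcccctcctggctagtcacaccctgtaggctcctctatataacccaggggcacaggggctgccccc

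The E-boxes begin 51 bases before the start in Mylpf, 183 and 88 bases before it in Tnnc2, 224 in Myl1 and 249 in Ckm, and the TATAAA match of Myl1, on the opposite strand, begins 95 bases before it. Of the 40 genes, 34 were in the promoter table, 5 of them with several starts, of which the first was used. An E-box was found in 27 of 34 of these windows (79.4%), against 66.0% of the windows of all genes. CAGCTG, a form of the E-box and so counted there too, was in 11 of 34 (32.4%), against 12.8% of all. Among the 9 litter-called genes with a window, 7 of 9 held an E-box and 4 of 9 held CAGCTG. Among the 25 muscle genes not called or not tested, 20 held an E-box (80.0%) and 7 held CAGCTG (28.0%). The CArG box, the motif of serum response factor, was in 4 of 34 muscle gene windows (11.8%, against 1.4% of all), the MEF2 motif in 1 of 34 (2.94%, against 0.518%) and TATAAA in 7 of 34 (20.6%, against 13.0%). A match describes the letters only.

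All 5 fast fibre genes tested passed between litters. Mylpf had signals in litters 1 to 4 of 6998, 3659, 5090.0 and 8835 in transgenic samples, against 7341, 4455, 5287 and 9871 in control samples. Litter 2 was lowest and litter 4 highest in both genotypes, and the groups overlapped. The highest and lowest litter means of Mylpf differed 2.31-fold (limma, adjusted p = 0.000153). Tnnc2 had 5225, 2863, 3761 and 5823 in transgenic samples, against 5946, 3211, 4131 and 6324 in control samples. The order of the litters was the same as for Mylpf in both genotypes, with a 2.0-fold range of litter means (adjusted p = 0.000251). Tnni2, the inhibitory subunit of fast troponin, had 2949, 1569, 2469.8 and 3695 in transgenic samples, against 3164, 1975, 2543 and 4349 in control samples. It too was lowest in litter 2 and highest in litter 4 of both genotypes, over a 2.27-fold range (adjusted p = 0.000433). Another probe set of Tnni2 also passed (adjusted p = 0.00571), though there litter 3 was lowest among the control samples.

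Myl1 had signals of 10784.5, 4749.5, 7515 and 10364 in transgenic samples, against 10567, 5925, 7024 and 12773 in control samples. Both litter 2 samples lay below all other samples, and the litter means spanned 2.17-fold (limma, adjusted p = 0.00048). Tnnt3, the tropomyosin-binding subunit of fast troponin, followed another order, with 9953, 10253, 7792 and 13087 in transgenic samples, against 10608, 10132, 7361 and 12031 in control samples. Litter 3 was lowest and litter 4 highest in both genotypes, over a 1.66-fold range (adjusted p = 0.0035), and without litter 3 the call was lost (adjusted p = 0.14). Actn3, a Z-disc protein of fast fibres, lay under the filter, with 42.7 to 148 in transgenic and 16.8 to 124 in control samples.

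**Figure D2:**
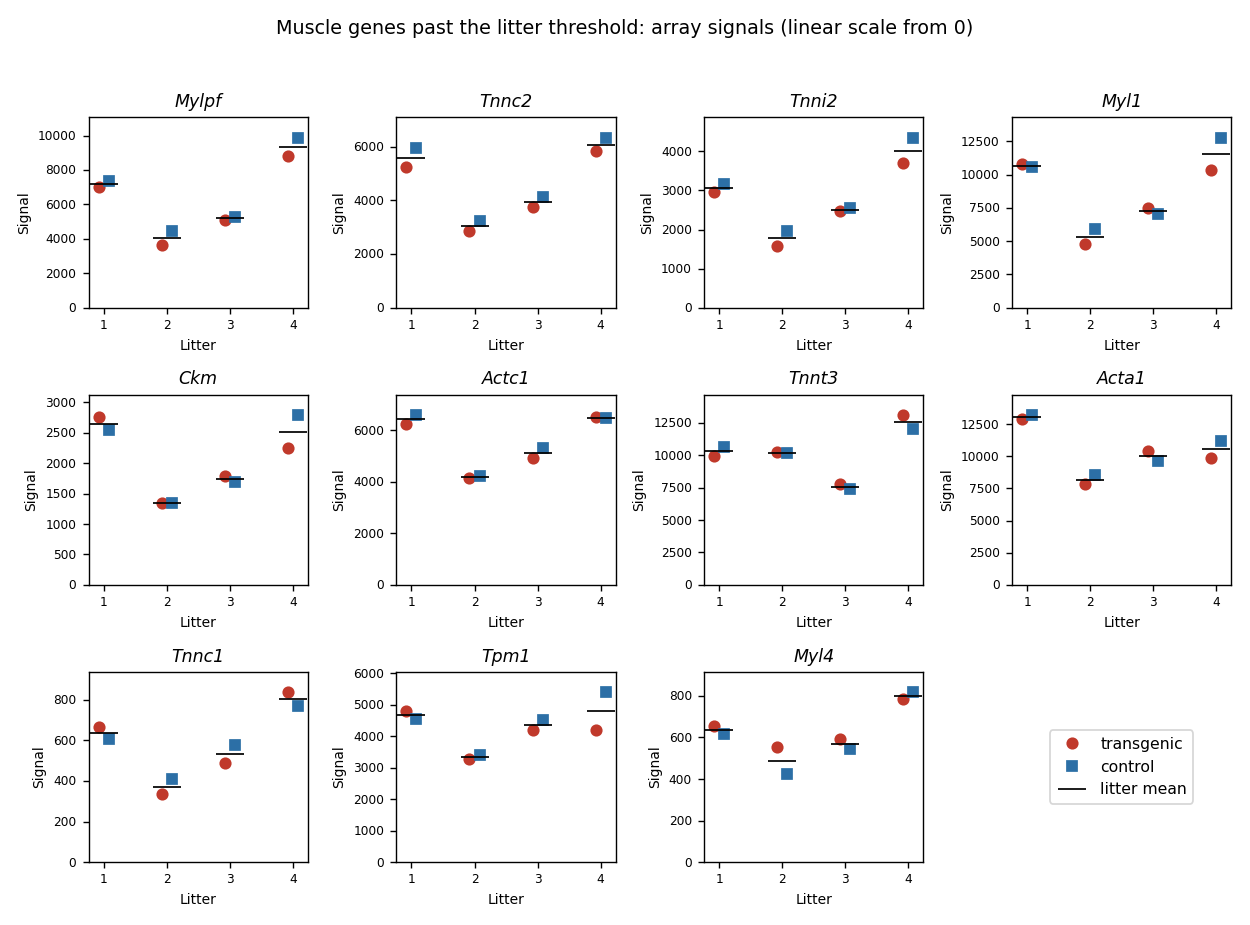
Signal on a linear axis from 0 is plotted by litter for the 11 muscle genes past the litter threshold, with transgenic samples as circles, control samples as squares and the mean of a litter as a line. Litter 2 is lowest within both genotypes in every panel but that of Tnnt3, where litter 3 is.

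Of the 4 developmental isoforms, Actc1 and Myl4 passed between litters. Actc1, the cardiac actin that fetal skeletal muscle also makes, had 6244, 4129.6, 4927 and 6503 in transgenic samples, against 6582, 4217, 5289.7 and 6452.5 in control samples. Litter 2 was lowest in both genotypes and the groups overlapped (limma, adjusted p = 0.0035, 1.55-fold between litter means). Without litter 2 the adjusted p of Actc1 was 0.0895. Myl4, the embryonic and atrial essential light chain, had 655.5, 552, 595 and 786 in transgenic samples, against 617, 423, 545 and 817 in control samples. It was lowest in litter 2 and highest in litter 4, but its adjusted p of 0.0498 stood just under the threshold, and leaving out any 1 of the 8 arrays took it over, to between 0.057 and 0.174. A dimmer probe set of Myl4 did not pass (adjusted p = 0.445).

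Myh3, the embryonic myosin heavy chain, had 238, 222, 238 and 210.2 in transgenic samples, against 115, 109, 243 and 148 in control samples. Control litter 3 stood above every transgenic sample and the other 3 control samples stood below all of them, so the groups overlapped. Means were 227 ± 13.4 in transgenic and 154 ± 62.1 in control samples (SD, n = 4 each), a difference of 0.56 log2 (SE 0.22, 95% interval 0.08 to 1.04, limma unadjusted p = 0.0258, adjusted p = 0.9999). Myh8, the neonatal heavy chain, had 172, 121, 184 and 118 in transgenic samples, against 141, 157, 133 and 175 in control samples. Neither genotype nor litter sorted the samples of Myh8, with a difference of -0.04 log2 (SE 0.20) and an adjusted p of 0.959 between litters.

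The heavy chains of adult fibres were dim. Myh1, of fast IIx fibres, had 75.5, 129, 87.6 and 112 in transgenic samples, against 55.0, 61.7, 101 and 83.4 in control samples. Myh2, of fast IIa fibres, had 10.3, 24.9, 8.03 and 111 in transgenic samples, against 8.72, 49.8, 8.77 and 10.9 in control samples. In Myh2 a single array stood out in each genotype, litter 4 among transgenic and litter 2 among control samples. Myh4, of fast IIb fibres, had 30.8, 36.3, 14.5 and 1.73 in transgenic samples, against 37.4, 52.2, 34.5 and 39.4 in control samples. Myh7, the slow heavy chain, had 55.2, 30.7, 39.3 and 18.2 in transgenic samples, against 21.0, 48.2, 20.7 and 25.7 in control samples. The groups overlapped in all 4 genes, and no array reached the filter signal for Myh4 or Myh7. Heavy chain genes share much sequence, so a probe set may read more than 1 of them.

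Among slow fibre genes, 1 of the 5 tested passed between litters. Tnnc1, the calcium sensor of slow and cardiac troponin, had 667, 337, 490.4 and 836 in transgenic samples, against 605, 407, 575 and 769 in control samples. Litter 2 was lowest and litter 4 highest in both genotypes, over a 2.16-fold range (limma, adjusted p = 0.00932), and the adjusted p was 0.0742 without transgenic replicate 2 and 0.0505 without control replicate 2. Myl2, the regulatory light chain of slow and ventricular muscle, missed the threshold by little (adjusted p = 0.0509), with litter means of 437, 259.7, 390.4 and 506. Tnni1, the inhibitory subunit of slow troponin, had litter means of 430.4, 238, 311 and 363 (adjusted p = 0.0855). Tnnt1, the tropomyosin-binding subunit of slow troponin, spanned 1.27-fold between litters (adjusted p = 0.245). In these 4 genes litter 2 was lowest in both genotypes, as it was in 14.3% of all genes tested and in 15 of the 33 muscle genes. Myl3, the essential light chain of slow and ventricular muscle, was highest in litter 1 of both genotypes instead (adjusted p = 0.293).

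The genes shared by all fibres gave 2 calls among 7. Acta1, the skeletal muscle actin, had 12881, 7846, 10408 and 9905 in transgenic samples, against 13206, 8519, 9671 and 11226 in control samples. Litter 1 was highest and litter 2 lowest in both genotypes (limma, adjusted p = 0.00716, 1.59-fold between litter means). Its adjusted p was 0.0543 without transgenic replicate 2, 0.061 without litter 1 and 0.0903 without litter 2. Tpm1, a tropomyosin that muscle and other cells make in different splice forms, had 4801.5, 3279, 4193 and 4200.5 in transgenic samples, against 4552, 3409.7, 4517 and 5398 in control samples. Litter 2 was lowest in both genotypes (adjusted p = 0.0356), and the call was lost without transgenic replicate 2 or 3 or control replicate 2 or 3 (adjusted p = 0.154, 0.0766, 0.231 and 0.0836).

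The probe sets of the tropomyosin genes disagreed. A dimmer probe set of Tpm1 had 418, 956, 364 and 424 in transgenic samples, against 628, 838, 439.7 and 346.5 in control samples. There litter 2 was highest in both genotypes, opposite to the brightest probe set, and the litters passed as well (limma, adjusted p = 0.0114). With the mean over its probe sets Tpm1 did not pass (adjusted p = 0.53). Tpm2, the beta tropomyosin, was highest in litter 2 by its brightest probe set, at 3407 in the transgenic and 3508 in the control sample (adjusted p = 0.121). Another of its probe sets had its lowest values there, 1081 in the transgenic and 906 in the control sample (adjusted p = 0.0535).

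Des, the intermediate filament protein desmin, was lowest in litter 2 and highest in litter 4 of both genotypes, with litter means of 269.5, 176, 231 and 325 (limma, adjusted p = 0.0833). Ttn, the giant spring protein titin, Actn2, the main Z-disc actinin, and Neb, the thin filament protein nebulin, had adjusted p of 0.195, 0.666 and 0.906 between litters. Des was also higher in transgenic than control samples of all 4 litters, by 0.01 to 0.15 log2, a difference smaller than its SE of 0.21.

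Ckm, which buffers ATP in working muscle, had 2765, 1338, 1786 and 2247 in transgenic samples, against 2538, 1339, 1698.5 and 2791 in control samples. The samples of litter 2 nearly coincided and lay below all others (limma, adjusted p = 0.00183, 1.98-fold between litter means), and without that litter the adjusted p was 0.0654. Mb, the oxygen store myoglobin, lay under the filter, with 137, 14.9, 65.3 and 104 in transgenic samples, against 175, 35.4, 53.4 and 34.9 in control samples. Litter 1 was highest in both genotypes for Mb, and the groups overlapped.

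None of the 5 calcium genes passed between litters. Casq1, the calcium store protein of fast fibres, had 263, 244, 139 and 196 in transgenic samples, against 219.9, 241, 129 and 253.5 in control samples. Litter 3 was lowest in both genotypes (limma, adjusted p = 0.111), the groups overlapped, and the genotype difference was 0.00 log2 (SE 0.24). Casq2, the calsequestrin of slow and cardiac muscle, had 303, 366, 259.9 and 452 in transgenic samples, against 251, 266, 213.5 and 306 in control samples. The transgenic sample was the higher one in all 4 litters while the groups overlapped, and litter 3 was lowest in both. Its means were 345 ± 83.5 in transgenic and 259 ± 38.2 in control samples (SD, n = 4 each), a difference of 0.37 log2 (SE 0.18, limma unadjusted p = 0.0649, adjusted p = 0.9999).

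Mrln encodes myoregulin, a micropeptide that inhibits the calcium pump of skeletal muscle. Its signals were 268, 212, 276 and 296 in transgenic samples, against 422.5, 433, 357 and 338 in control samples. Every transgenic sample lay below every control sample, and within litters 1 to 4 the transgenic signal was 0.633, 0.489, 0.773 and 0.875 times the control signal. Means were 263 ± 35.9 in transgenic and 388 ± 47.2 in control samples (SD, n = 4 each), a difference of -0.53 log2 (SE 0.15, 95% interval -0.86 to -0.20, limma unadjusted p = 0.00434, adjusted p = 0.9999). Atp2a1, the calcium pump of fast fibres, differed by -0.16 log2 (SE 0.18) and Ryr1, the calcium release channel, by -0.15 log2 (SE 0.21).

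At the neuromuscular junction, Dok7, the adaptor that activates the receptor kinase MuSK, had 244, 227, 282.5 and 263 in transgenic samples, against 375, 416, 374 and 288 in control samples. Its groups did not overlap either, and the transgenic sample was lower in all 4 litters, at ratios of 0.652, 0.546, 0.756 and 0.914 in litters 1 to 4. Means were 254 ± 24.0 in transgenic and 363 ± 53.7 in control samples (SD, n = 4 each), a difference of -0.47 log2 (SE 0.15, 95% interval -0.80 to -0.14, limma unadjusted p = 0.00865, adjusted p = 0.9999). Chrna1, the alpha subunit of the muscle acetylcholine receptor, had 134.5, 135, 111 and 86.7 in transgenic samples, against 145, 72.9, 137 and 173.1 in control samples. The samples of Chrna1 overlapped, and the direction differed between litters.

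The myogenic factors showed no call in either comparison. Myod1, which commits cells to muscle, had 326, 299, 299.8 and 242 in transgenic samples, against 333, 236, 368 and 229 in control samples. Litter 4 was lowest in both genotypes (limma, adjusted p between litters 0.284), the groups overlapped, and the genotype difference was 0.02 log2 (SE 0.18). Myf5, active in early myoblasts, had 465, 366, 535 and 391 in transgenic samples, against 432, 257, 454 and 376 in control samples. Litter 2 was lowest in both genotypes, and the transgenic sample was higher in all 4 litters while the groups overlapped (0.21 log2, SE 0.19, unadjusted p = 0.27). Pax7 had 408, 318, 336 and 312 in transgenic samples, against 356, 244, 272 and 272 in control samples. It too was higher in the transgenic sample of all 4 litters (0.25 log2, SE 0.16, unadjusted p = 0.13), with overlapping groups. A dimmer probe set of Pax7 did not share that direction, with 145, 164, 93.6 and 122 in transgenic samples, against 101, 167, 106 and 132 in control samples. There the transgenic sample was the lower one in litters 2, 3 and 4 (0.05 log2, SE 0.23).

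Myog, which drives the final differentiation of myoblasts, had 754, 1103, 629 and 1043 in transgenic samples, against 829.7, 798.5, 732 and 924 in control samples. Litter 3 was lowest in both genotypes, not litter 2, where the transgenic sample held the highest signal of all, and the groups overlapped (limma, adjusted p between litters 0.145). Myf6, a factor of mature fibres, lay under the filter, with 114, 78.7, 56.4 and 68.4 in transgenic samples, against 63.3, 61.7, 44.4 and 117 in control samples. Its groups overlapped.

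Set side by side, the 3 genes with an unadjusted genotype p under 0.05 were Myh3, Mrln and Dok7. The transgenic arrays lay below all control arrays in 2 of the 33 (Mrln and Dok7), against 0.528% of all genes, and above them in 0, against 0.455%. The transgenic sample was higher in all 4 litters in 4 genes (Des, Casq2, Myf5 and Pax7), against 5.76% of all genes. It was lower in all 4 in 5 genes (Mylpf, Tnni2, Tnnc2, Mrln and Dok7), against 4.93%. The fitted differences were positive in 11 and negative in 22, with a median of -0.06 log2, beside 0.00 log2 over all genes tested. The list of the 33 was drawn up with earlier results of these data known, so these shares are not a test. In a wider list of other muscle genes, described below, 0 of 57 tested had an unadjusted genotype p under 0.05 (limma). The transgenic arrays lay all above or all below the control arrays in 0 of those 57.

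With litter as a block, the intervals of the bright contractile genes narrowed and still 0 genes passed (limma, smallest adjusted p among the 33 of 0.9998). Genes with an unadjusted p under 0.05 then numbered 6 of the 33, adding Casq2, Tnni2 and Tnnc2, against 3.06% of all genes. That share is not a test either. The blocked 95% interval of the ratio of transgenic to control was 0.877 to 1.06 for Actc1, 0.869 to 1.06 for Acta1 and 0.817 to 0.993 for Tnnc2. The interval of Tnnc2 lay below 1, as did that of Tnni2 (0.789 to 0.994), while those of Actc1 and Acta1 held 1. The interval was 1.05 to 1.58 for Casq2, 0.551 to 0.874 for Mrln and 0.576 to 0.903 for Dok7. For Myh3 it was 1.09 to 1.99.

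**Figure D3:**
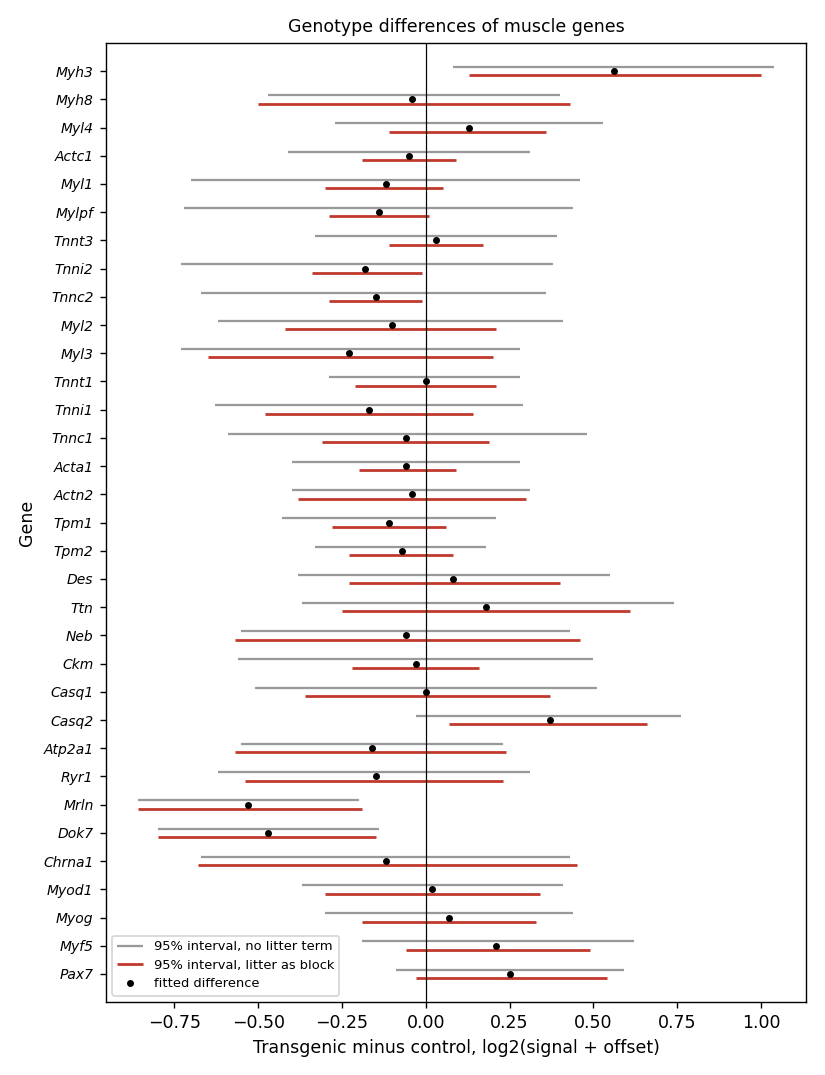
For the 33 genes tested, points give transgenic minus control on the log2(signal + 22.2) scale, grey lines the 95% interval without a litter term and red lines that with litter as a block. The intervals of Mrln and Dok7 lie below 0 and that of Myh3 above 0 in both fits, before any adjustment for the number of genes.

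**Figure D4:**
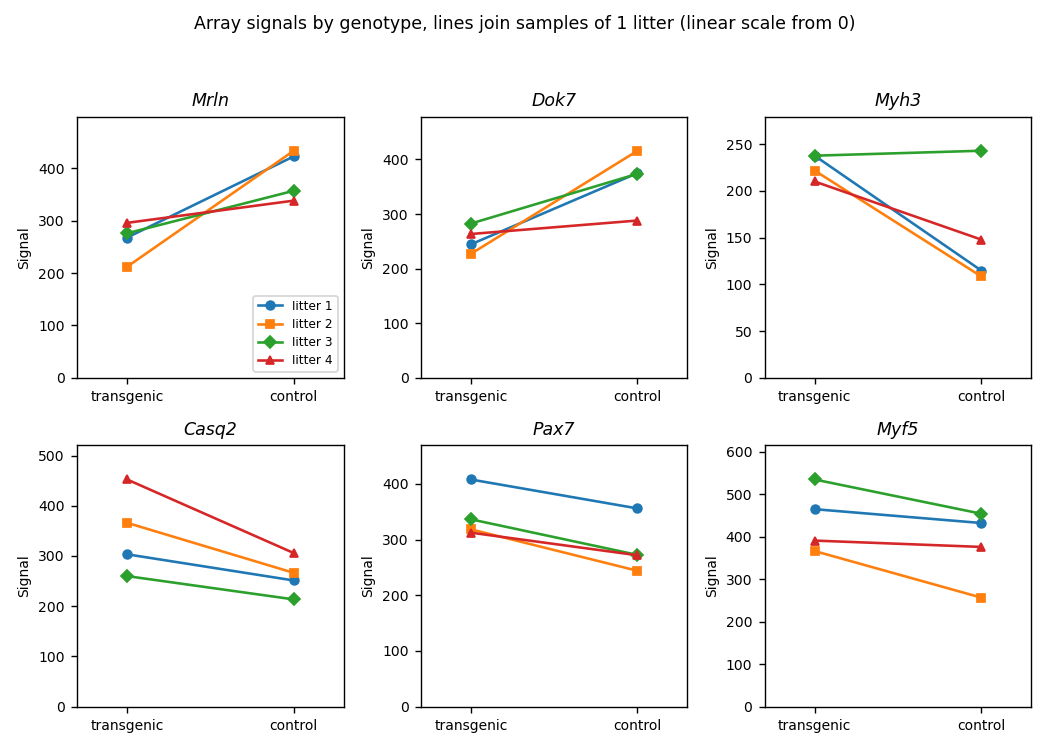
Signals of Mrln, Dok7, Myh3, Casq2, Pax7 and Myf5 are plotted on linear axes from 0, transgenic left of control, with a line joining the samples of each litter. All 4 lines run up to control for Mrln and Dok7 and down to control for Casq2, Pax7 and Myf5, while litter 3 departs from the other lines for Myh3.

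The share of genes called between litters grew with signal, in bins set after the values were seen. At mean signals over 2000, 9 of 10 muscle genes passed (all but Tpm2), against 20.9% of all genes in that range. Between 500 and 2000, 2 of 4 passed (Myl4 and Tnnc1), against 11.2%. Below 500, 0 of 19 passed, against 3.04%, so all calcium and junction genes and most myogenic factors stood where few genes of any kind passed.

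**Figure D5:**
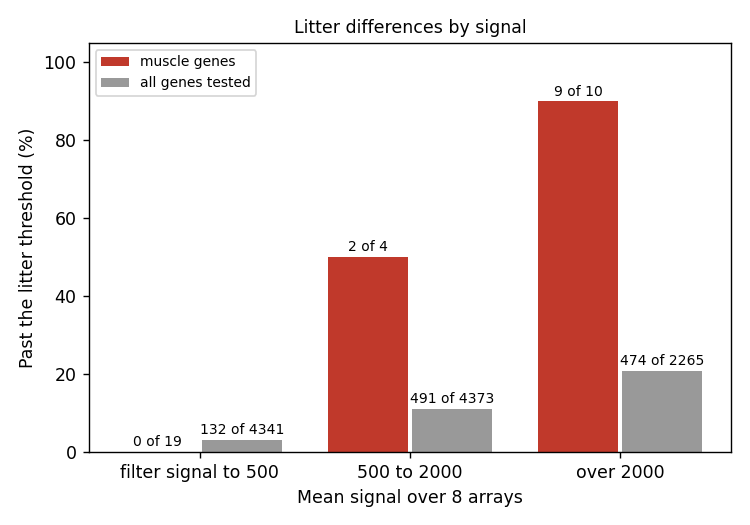
Bars give the percent of genes past the litter threshold in 3 ranges of mean signal, red for muscle genes and grey for all genes tested, with counts above the bars. Muscle genes reach 9 of 10 in the brightest range, against 474 of 2265 of all genes.

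The 11 litter calls leaned on litter 2, as did the litter calls over all probe sets. Without that litter 5 muscle genes passed, the fast fibre genes Myl1, Mylpf, Tnnt3, Tnni2 and Tnnc2. Probe sets past the threshold fell at the same time from 2041 (9.07%) to 562 (2.5%) of the 22495 tested. Without transgenic replicate 2 there were 7 muscle genes and 713 probe sets (3.17%). Without any other single array there were 8 to 11 muscle genes and 548 to 2128 probe sets. Other values moved with litter too. The summed signal of the 14 chondrocyte markers was 370091 to 420459.9 in transgenic and 359553 to 464568 in control samples, highest in litter 2 of both genotypes and lowest in litter 4, and 4 of them passed between litters (Sox9, Col11a2, Acan and Col9a2), or 28.6%, against 9.99% of all genes tested and 20.9% of those with a mean signal over 2000. The sum of 8 tendon and connective tissue markers was 13607 to 21574 in transgenic and 15584 to 24553 in control samples, that of 7 smooth muscle markers 5544.5 to 6710.2 in transgenic and 5941 to 7982 in control samples and that of 3 erythroid markers 2587 to 3962 in transgenic and 2315 to 4638.5 in control samples. Tnc, the matrix protein tenascin-C of the tendon list, passed between litters with litter 2 lowest in both genotypes (limma, 2.3-fold between litter means, adjusted p = 0.000909). It was the only one to pass of the 7 tendon list markers tested. By litter mean 4 of the 7 were lowest in litter 2, while Tcf7l2, Osr1 and Osr2 were lowest in litter 4. Alas2, the heme synthesis enzyme of erythroid cells, gave most of the erythroid sum and passed with litter 3 lowest in both genotypes (limma, adjusted p = 0.00549). Slc4a1, the other erythroid marker over the filter, was lowest in litter 2 of both genotypes instead and did not pass (adjusted p = 0.0934).

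Of 10 cardiac muscle markers, Sln, Tnnt2 and Mybpc3 were over the filter. The list summed to 1427 to 2573 in transgenic and 1579.7 to 2857 in control samples, with litter 2 lowest. Litter means of the sum were 2296, 1503, 1642 and 2715. Sln, which is also on the wider muscle list below, gave the largest part, with litter means of 1424, 640, 1024 and 1736. Tnnt2 had litter means of 366.5, 297, 297 and 474. Mybpc3 had 128, 155, 59.3 and 187 and was lowest in litter 3 of both genotypes. The heart genes Myh6, Nppa, Myl7, Tnni3 and Tbx20 were under the filter signal on every array. The heart factor Tbx5, which other tissues also make, passed it on 4 arrays, with 23.3 to 146 in transgenic and 56.7 to 164 in control samples, and Nkx2-5 on 2, with 63.1 to 136 in transgenic and 73.7 to 127 in control samples. The ratio of 5′ to 3′ probe signal, a measure of RNA integrity, was 1.14 to 1.36 in transgenic and 1.17 to 1.35 in control samples for Gapdh and 0.475 to 0.647 in transgenic and 0.512 to 0.641 in control samples for beta-actin, in both cases lowest in litter 4 and highest in litter 3. The part of these markers and ratios in the litter differences was not tested.

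A wider list of 101 symbols of other muscle genes, of which 93 had a probe set and 57 were tested, gave 0 genotype calls. It gave 13 litter calls (22.8%, against 9.99% of all genes tested, limma). In 11 of the 57 litter 2 was lowest in both genotypes and the call was made, against 2.73% of all genes tested. Sln, the calcium pump inhibitor sarcolipin, which was also on the cardiac list, had 1468, 599, 1015 and 1575.5 in transgenic samples, against 1380.2, 680.4, 1033.5 and 1897 in control samples. Litter means of Sln spanned 2.71-fold (adjusted p = 0.000376), with litter 2 lowest and litter 4 highest in both genotypes. Smpx, a small muscle cytoskeletal protein, spanned 2.64-fold (adjusted p = 0.000631), and Pgam2, the muscle phosphoglycerate mutase, 2.34-fold (adjusted p = 0.00478). The Z-disc proteins Myoz2 and Csrp3 and the muscle enolase Eno3 also passed with litter 2 lowest (adjusted p = 0.00562, 0.013 and 0.0199).

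Agrn, the nerve-derived organiser of the neuromuscular junction that other tissues also make, and Fgfr4, an FGF receptor of myogenic cells, passed in another order, with litter 4 lowest in both genotypes (limma, adjusted p = 0.00577 and 0.0174). Between genotypes the smallest unadjusted p among the genes of this list over the filter was 0.0675 (limma), for Jph2, at -0.45 log2 (SE 0.22). Jph2 is a junctophilin that ties the calcium store to the surface membrane. Sgca, of the dystrophin complex, differed by 0.41 log2, Lrp4, the agrin receptor that acts with MuSK, by -0.42 log2 and Pgam2 by -0.49 log2, with unadjusted p of 0.105, 0.107 and 0.112.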

How the data were processed

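RNA of 8 samples was read on 1-colour Affymetrix arrays. The deposited intensity values came from MAS5, per the submitters' processing notes (version not given in the sources used here), and their trimmed mean was 500 on each array. Signals were used as log2(signal + 22.2), where 22.2 was the 20th percentile of all values, so fold changes of dim genes are understated. Of 45101 probe sets 34945 had 1 symbol, 932 several and 9160 none, besides 64 controls. The 22495 probe sets (10979 genes) with a mean signal of at least 110.4 were tested.

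Genotypes were compared with limma 3.58.1 in R 4.3.3 (lmFit, eBayes with intensity trend, two-sided), without covariates, and litters with its moderated F-test in a model that held genotype, both with Benjamini-Hochberg adjustment over all probe sets tested and a threshold of 0.05. The fits were also run on simulated data in which only a chosen set of probe sets differed between litters. That simulation does not show how the genotype fit without litter performs where many probe sets differ between litters, as here. Hoxc8 was also tested over all 70 assignments of arrays.

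The labels tie replicate numbers to litters, so they pair the samples. Deviations of same-litter arrays correlated at 0.0253, 0.435, 0.376 and 0.38 in litters 1 to 4, and no array correlated above 0.0626 with one of the other genotype and another litter. Litter 1 thus did not show the pairing.

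The 40 genes and the other lists were chosen with earlier results of these data known, and get counts beside those of all genes, not a test. Each of the 40 is named. Values by array are given for the myosin heavy chains, the myogenic factors, Acta1, Actc1, Ckm, Mb, Casq1, Casq2, Mrln, Dok7, Chrna1 and any gene past the threshold, and up to 8 other muscle genes are named by smallest p, or 4 where none passed. Alternatives were litter as a block, other offsets, filters, normalizations and probe set rules, no trend, and leaving out arrays or litters. Promoters came from RefSeq (GRCm38.p6). Probe sets beside the brightest, markers called between litters and the cardiac markers were named after their values were seen. Samples are labelled as biological replicates, and their number, 4 per group, limits the precision.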

Additional observations from a re-analysis of the deposited data

Results flagged for a closer look

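For all 40 genes, the most extreme of the 4 samples of each genotype was compared with the other 3, which makes 80 groups. In 4 groups 1 sample stood far from the others, and chance alone flags about 1 in 20 groups, or 4 here. Myh2 had a signal of 110.7 in transgenic replicate 4, with the next transgenic sample at 24.89. In control replicate 2 Myh2 had 49.83, with the next control sample at 10.85. Myl3 had 221.5 in transgenic replicate 1, with the next at 122.2. Mb had 175.1 in control replicate 1, with the next at 53.37. Myh2 and Mb lay under the filter and were not tested.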

How the results depend on the processing

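Over the 21 other settings, 0 muscle genes and 0 probe sets passed between genotypes. This includes the replicate block by litter, where the smallest adjusted p among the muscle genes was 0.9998 and Hoxc8 differed by 0.15 log2 (SE 0.08). Of 674 genotype differences of muscle genes, 64 turned sign, in 22 genes, none of them called. Mrln stayed between -0.64 and -0.38 log2, Dok7 between -0.59 and -0.36, Myh3 between 0.38 and 0.78, Casq2 between 0.24 and 0.49 and Hoxc8 between 0.05 and 0.23. Between litters 2041 probe sets and 11 muscle genes passed. Without the intensity trend both counts were 0, with 4914 probe sets at an unadjusted p under 0.05, and the cause was not tested. The probe set count was 995 without a filter and 1278 with 1 mean value per gene, where 10979 genes were tested. Leaving out single arrays or litters gave 548 to 3064 probe sets and 5 to 11 muscle genes. Without genotype in the model 12 muscle genes passed, adding Myl2. The 7 genes under the filter have no test, and few dim genes of any kind were called.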
